A study of Homo sapiens with 8 samples.

Results

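The genes described here are the DNA damage response and R-loop genes of 2 human acute myeloid leukemia (AML) lines. Members were chosen by name from a list of 46 symbols, of which 45 were found in the Molm13 table and 1, MRE11, is listed there under its older symbol MRE11A, also on the list. The 45 symbols correspond to 46 gene identifiers, because ATRIP has 2, out of 57992 genes in the Molm13 table, and all 46 identifiers are also in the THP1 table of 58174 genes. By role, 5 are checkpoint kinases, 10 are ATR partners, clamp and fork protection genes, 6 are break sensing and chromatin mediator genes, 10 are homologous recombination genes, 7 are Fanconi anemia genes and 8 are RNase H, R-loop and topoisomerase genes.

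PolyA RNA was sequenced from Molm13 and THP1 cells, monocytic AML lines that carry KMT2A (MLL) fusions, to ask how depletion of the arginine methyltransferase PRMT9 changes gene expression. The 4 groups were Molm13 with a control shRNA (shCtrl, labelled WT), Molm13 with an shRNA against PRMT9 (shPRMT9, labelled PRMT9 knockdown) and the same 2 groups of THP1, each with 2 libraries, 8 in all, and every group is labelled Dox induction. No source used here says whether the libraries of a group came from separate cultures, so p-values measure only the spread between these libraries, and the numbers of the shPRMT9 libraries may mark different hairpins. The lines are not described as clones, and OCI, part of the name of other leukemia lines, stands in the THP1 library names. Neither the fusions nor the identity of the lines was tested here.

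A stalled fork or a break is read by the kinases ATR and ATM, which act through CHEK1 and CHEK2 to hold the cell cycle. Breaks are then repaired by homologous recombination, and crosslinks by the Fanconi anemia pathway. R-loops, in which nascent RNA stays paired with template DNA, are a source of stalled forks. They are removed by RNase H enzymes, RNA helicases and 5′ to 3′ exonucleases, and limited by topoisomerases.

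PRMT9 was lower in the shPRMT9 libraries of both lines. It had 332 and 289 counts in Molm13 shCtrl and 41 and 56 in shPRMT9, and 317 and 352 in THP1 shCtrl and 60 and 68 in shPRMT9. The log2 fold change, shPRMT9 over shCtrl, was -2.68 ± 0.14 (SE, n = 2 libraries per group) in Molm13 (FDR = 1.16e-21) and -2.29 ± 0.13 in THP1 (FDR = 3.54e-14). FDR is the Benjamini-Hochberg adjusted p of edgeR's quasi-likelihood test over all genes tested in the line. Library totals ranged from 18720950 to 27356870 counts. Of 9 myeloid leukemia genes, all had 100 or more counts in every Molm13 library and 8 in every THP1 library, where MEIS1 had 4 to 9. The summed CPM (read counts brought to a common library total with TMM factors) of these 9 genes was 1336 and 1346 in Molm13 shCtrl, 2175 and 2186 in Molm13 shPRMT9, 2500 and 2467 in THP1 shCtrl and 3969 and 3823 in THP1 shPRMT9. LYZ, the lysozyme gene, carried most of the sum in THP1 (1892 and 1880 CPM in shCtrl) and less in Molm13 (633 and 635). All of the 9 genes but MPO rose by FDR in Molm13, and all but MPO rose in THP1, where MEIS1 was not tested. LYZ had a log2 fold change of 0.66 in Molm13 and 0.71 in THP1, PTPRC of 0.90 and 0.24, and SPI1 of 0.47 and 0.42. CD33 was at 0.57 and 0.15, HOXA9 at 0.26 and 0.20, and MEIS1 at 0.24 in Molm13. ITGAM and CSF1R, surface markers of monocytes, rose in each line, by a log2 fold change of 1.95 (FDR = 4.22e-33) and 2.06 (FDR = 2.57e-29) in Molm13 and 1.15 (FDR = 5.35e-15) and 1.03 (FDR = 9.38e-18) in THP1. MPO, a granule enzyme of immature myeloid cells, fell by 0.56 on the log2 scale in Molm13 (FDR = 3.26e-13) and by 0.82 in THP1 (FDR = 2.23e-05). The part of these genes in the members' values was not tested. Of 9 genes of other cell types, PAX5, a B-cell transcription factor, had 741 to 866 counts in Molm13 (log2 fold change -0.12, FDR = 0.0605). In THP1 it rose with shPRMT9, from 64 and 86 to 298 and 276 counts (2.03, FDR = 7.37e-13), while MS4A1 had 0 or 1 count in each THP1 library. No other of the 9 had more than 32 counts in a library. In Molm13, CD3E, MS4A1, EPCAM, ALB and HBB had 0 or 1 count in each library.

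In Molm13, the damage response genes were lower in shPRMT9 as a group. To count as a differentially expressed gene (DEG), a gene had to pass an FDR of 0.05, change by more than 1.5-fold in either direction and exceed an RPKM (reads per kilobase of exon, scaled to the library total) of 1 in any library of the line. Of the 44 members with enough counts to test, 26 were DEGs, all of them lower in shPRMT9, whereas 22.8% of the 16446 genes tested were DEGs and 11.3% were lower DEGs. By FDR alone, 37 members fell, 4 rose (ATM, RAD17, TP53BP1 and RAD50) and 3 did not pass (CHEK2, RAD9A and HUS1), against a background of 66.9% of all genes passing, 33.5% falling and 33.4% rising. DESeq2 called 2 members higher, with RAD17 (FDR = 0.0746) and TP53BP1 (FDR = 0.154) not passing. The median log2 fold change of the 44 members was -0.69, with a range from -1.54 to 0.36, and that of all genes tested was 0.00047. Both shPRMT9 libraries lay below both shCtrl libraries for 39 members and above them for 5, and 81.9% of all genes tested had no overlap, 40.8% below and 41.2% above. The 8 tested members FANCA, RAD50, RAD54L, RNASEH2A, RNASEH2C, TIPIN, TP53BP1 and XRCC3 share over 20% of their exon bases with another gene on either strand, and 22 of the 36 members left without them were lower DEGs.

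In THP1, 0 of the 45 members tested were DEGs, against 6.22% of the 16294 genes tested, 3.83% higher and 2.39% lower. The count was also 0 by DESeq2, and 23 members had an unadjusted p below 0.05 by edgeR's quasi-likelihood test. By FDR alone, 14 members fell, 8 rose and 23 did not pass, where 37.6% of all genes passed, 18.6% falling and 19.0% rising. The 8 higher members became 5 under DESeq2 and 5 without shCtrl replicate 1 or shPRMT9 replicate 2, and 7 without either of the other libraries. The median was -0.02, with a range from -0.51 to 0.28, and the libraries of the groups overlapped for 13 members, lay below for 19 and above for 13, with 66.0% of all genes not overlapping, 33.0% below and 33.0% above.

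The effect of shPRMT9 itself was compared between the lines in a fit of all 8 libraries, as the log2 fold change in THP1 minus that in Molm13. It was higher in THP1 for 35 of 45 members and lower for 3 (ATM, CHEK2 and RAD17), and 7 did not pass an FDR of 0.05. Of the 19288 genes tested this way, 42.2% passed, 22.8% with a higher and 19.4% with a lower value in THP1. Only 13476 genes, 44 members among them, were tested in the separate fits of both lines. The 19288 thus include genes with few counts in a line. The median difference over members was 0.58 and that over all genes was 0.03. The counts of each line come in a separate table, so line and the handling of each line's libraries cannot be told apart.

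**Figure D1:**
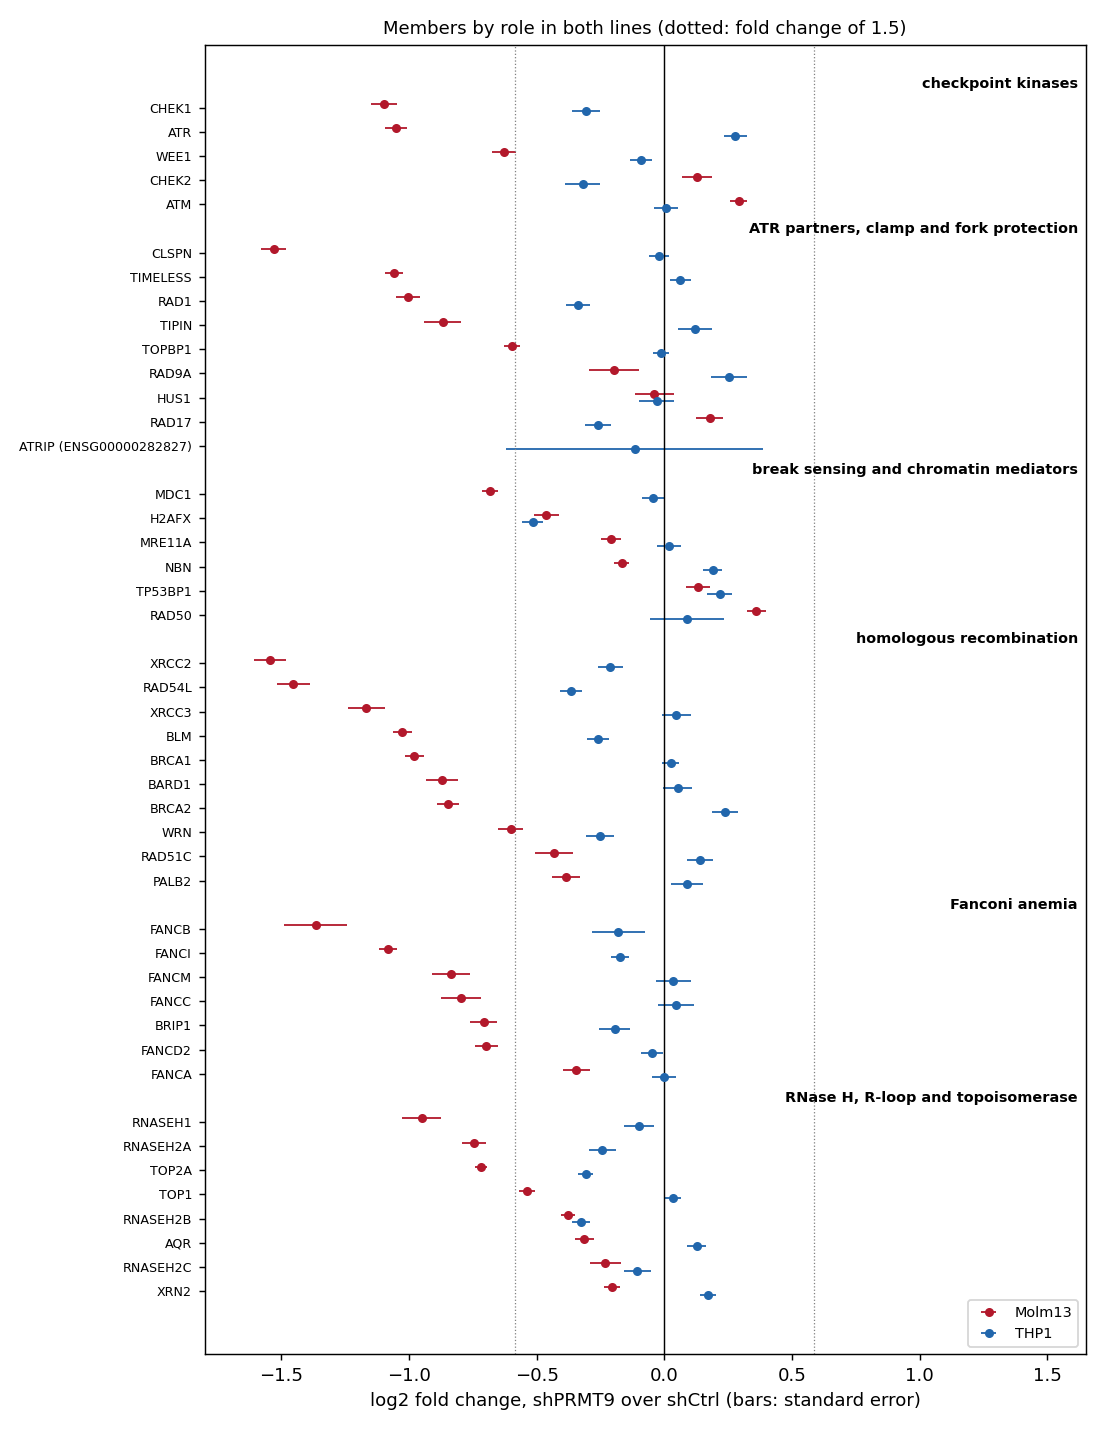
Log2 fold change (shPRMT9 over shCtrl, horizontal axis) of each tested member, grouped by role, in Molm13 (red) and THP1 (blue), with standard errors as bars and a fold change of 1.5 as dotted lines. Of the 44 members tested in Molm13, 26 lie past the left dotted line as DEGs, whereas the 45 in THP1 lie between -0.51 and 0.28.

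Of the 44 members tested in both lines, 12 (27.3%) fell by FDR in each: BLM, BRIP1, CHEK1, FANCI, H2AFX, RAD1, RAD54L, RNASEH2A, RNASEH2B, TOP2A, WRN and XRCC2. Among the 13476 genes tested in both lines, 10.8% fell in each. A further 6 members (13.6%) fell in Molm13 and rose in THP1, AQR, ATR, BRCA2, NBN, RAD51C and XRN2, against 5.52% of all genes. These shares do not allow for the larger share of members falling in Molm13, 84.1% against 33.5% of all genes tested there. Under DESeq2, 11 members fell in each line, BRIP1 not passing, and 4 (9.09%) fell in Molm13 and rose in THP1, as RAD51C (FDR = 0.152) and AQR (FDR = 0.0518) did not pass in THP1. TP53BP1 rose in both lines, as did 11.5% of all genes, and RAD17 rose in Molm13 and fell in THP1, as did 5.80%, although neither gene passed in Molm13 under DESeq2. No member was a DEG in both lines, against 2.06% of all genes higher and 0.534% lower in both.

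The promoters of some members are printed here because the members moved together in Molm13. RefSeq promoters (build GRCh38.p14) of 250 bases before to 50 after a start site were matched for 40 of the 45 symbols, 53 promoters in all. WEE1, HUS1, NBN, WRN and FANCI had no entry. XRCC2 and CLSPN had the lowest log2 fold changes among the members in Molm13, TOPBP1 is a member with the E2F letters at the start site, H2AFX fell in both lines, and ATR fell in Molm13 and rose in THP1. Capitals mark the letters of 3 motifs on either strand: E2F (TTTCCCGC, TTTCGCGC, TTTGCCGC or TTTGGCGC), the CCAAT box (CCAAT) and the cell cycle homology region (TTTGAA or TTCGAA). The letters of no motif contain those of another. The windows, all on the minus strand and read 5′ to 3′, are chr7:152676092-152676391 for XRCC2, chr1:35769929-35770228 for CLSPN, chr3:133661892-133662191 for TOPBP1, chr11:119095416-119095715 for H2AFX and chr3:142578684-142578983 for ATR.
XRCC2: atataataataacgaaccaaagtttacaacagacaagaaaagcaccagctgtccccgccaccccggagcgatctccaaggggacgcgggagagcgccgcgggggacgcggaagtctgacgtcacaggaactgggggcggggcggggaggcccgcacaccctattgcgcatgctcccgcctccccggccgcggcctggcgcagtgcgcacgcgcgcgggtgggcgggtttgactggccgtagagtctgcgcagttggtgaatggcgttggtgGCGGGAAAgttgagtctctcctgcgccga
CLSPN: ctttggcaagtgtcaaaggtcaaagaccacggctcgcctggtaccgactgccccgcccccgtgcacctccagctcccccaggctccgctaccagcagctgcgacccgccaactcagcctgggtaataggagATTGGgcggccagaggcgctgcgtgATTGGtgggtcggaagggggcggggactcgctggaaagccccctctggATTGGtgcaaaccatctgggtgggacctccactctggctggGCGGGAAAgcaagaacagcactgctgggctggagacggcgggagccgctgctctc
TOPBP1: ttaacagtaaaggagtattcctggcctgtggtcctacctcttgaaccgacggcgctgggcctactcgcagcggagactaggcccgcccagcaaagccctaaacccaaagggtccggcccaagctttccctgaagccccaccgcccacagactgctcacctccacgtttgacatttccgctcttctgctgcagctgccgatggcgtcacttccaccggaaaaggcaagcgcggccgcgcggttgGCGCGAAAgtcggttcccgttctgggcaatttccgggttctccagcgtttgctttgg
H2AFX: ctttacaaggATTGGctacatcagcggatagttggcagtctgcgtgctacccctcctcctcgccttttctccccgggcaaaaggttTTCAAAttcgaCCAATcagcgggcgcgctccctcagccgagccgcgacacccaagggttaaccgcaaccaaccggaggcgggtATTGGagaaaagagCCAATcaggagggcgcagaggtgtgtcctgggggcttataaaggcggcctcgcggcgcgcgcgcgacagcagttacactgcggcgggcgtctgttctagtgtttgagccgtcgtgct
ATR: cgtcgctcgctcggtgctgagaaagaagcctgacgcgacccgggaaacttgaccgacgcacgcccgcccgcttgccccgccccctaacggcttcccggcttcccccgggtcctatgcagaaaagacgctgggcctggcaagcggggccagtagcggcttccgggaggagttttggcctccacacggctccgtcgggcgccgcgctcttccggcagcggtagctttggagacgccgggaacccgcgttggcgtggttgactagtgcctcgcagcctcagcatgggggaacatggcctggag
The E2F letters stood in 7 of 53 member promoters (13.2%) and in 3.31% of all 35116 promoters of the table, whose genes need not be expressed in these lines. The CCAAT box stood in 31 (58.5%), against 34.6% of all, and the cell cycle homology region in 7 (13.2%), against 16.4%. E2F letters began 21 bases after the start site of XRCC2 and 5 before that of CLSPN, where CCAAT also occurred 3 times. The other members that held them were FANCA, FANCC, FANCD2, TIPIN and TOPBP1. The 7 members with these letters had Molm13 log2 fold changes from -1.54 (XRCC2) to -0.34 (FANCA), and all 44 members tested, these 7 included, ranged from -1.54 to 0.36. Whether the letters went with the fall was not tested. The ATR window held no match. H2AFX held the CCAAT letters 4 times and the cell cycle homology letters in 1 place, read as TTCAAA on the printed strand. A match of letters is not a measured site.

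Among the checkpoint kinases, 3 of 5 were lower DEGs in Molm13 (ATR, CHEK1 and WEE1), ATM rose, and CHEK2 did not pass. Of all genes tested, 11.3% were lower DEGs there. The medians of the group were -0.63 in Molm13 and -0.09 in THP1. ATR (chr3:142449235-142578826), the kinase that answers to single-stranded DNA at stalled forks, had a CPM of 106 and 104 in Molm13 shCtrl and 51.2 and 50.3 in shPRMT9, and of 77.4 and 80.0 in THP1 shCtrl and 94.7 and 96.4 in shPRMT9. Both shPRMT9 libraries were thus lower in Molm13 and both were higher in THP1, with no overlap in either. The log2 fold change was -1.05 ± 0.04 in Molm13 (FDR = 1.05e-24) and 0.28 ± 0.04 in THP1 (FDR = 6.24e-06), and the difference between the lines was 1.34 ± 0.06 (FDR = 9.55e-35).

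CHEK1 (chr11:125625136-125676255), the kinase that ATR activates, fell in both lines. Its CPM was 71.0 and 70.5 in Molm13 shCtrl and 33.8 and 32.4 in shPRMT9, and 54.1 and 56.2 in THP1 shCtrl and 46.3 and 42.9 in shPRMT9. The fall was larger in Molm13 (-1.10 ± 0.05, FDR = 9.82e-23) than in THP1 (-0.31 ± 0.05, FDR = 4.49e-05), with a difference of 0.80 ± 0.08 (FDR = 8.85e-16). WEE1, the kinase that holds CDK1 inactive, had a log2 fold change of -0.63 ± 0.05 in Molm13 (FDR = 5.64e-16) and of -0.09 in THP1 (FDR = 0.106). Its Molm13 value without shPRMT9 replicate 1 was -0.58, short of the fold limit.

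The break-responsive kinases did not fall in Molm13. ATM (chr11:108222484-108369102), the kinase activated by double-strand breaks, had 193 and 176 CPM in Molm13 shCtrl and 227 and 225 in shPRMT9, and 79.1 and 87.5 in THP1 shCtrl and 83.3 and 84.1 in shPRMT9. It rose in Molm13 (log2 fold change 0.29 ± 0.03, FDR = 1.27e-10), and the THP1 libraries overlapped (0.01, FDR = 0.938). CHEK2 (chr22:28687743-28742422), the kinase downstream of ATM, had 37.2 and 36.5 CPM in Molm13 shCtrl and 38.6 and 41.8 in shPRMT9, and 25.9 and 26.0 in THP1 shCtrl and 20.7 and 20.8 in shPRMT9. Its log2 fold change was 0.13 ± 0.06 in Molm13 (FDR = 0.0504), where it passed when shPRMT9 replicate 1 was left out (FDR = 0.0162), and -0.32 ± 0.07 in THP1 (FDR = 0.000518). For both genes the difference between the lines was negative, -0.27 for ATM (FDR = 2.36e-05) and -0.43 for CHEK2 (FDR = 6.68e-05).

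**Figure D2:**
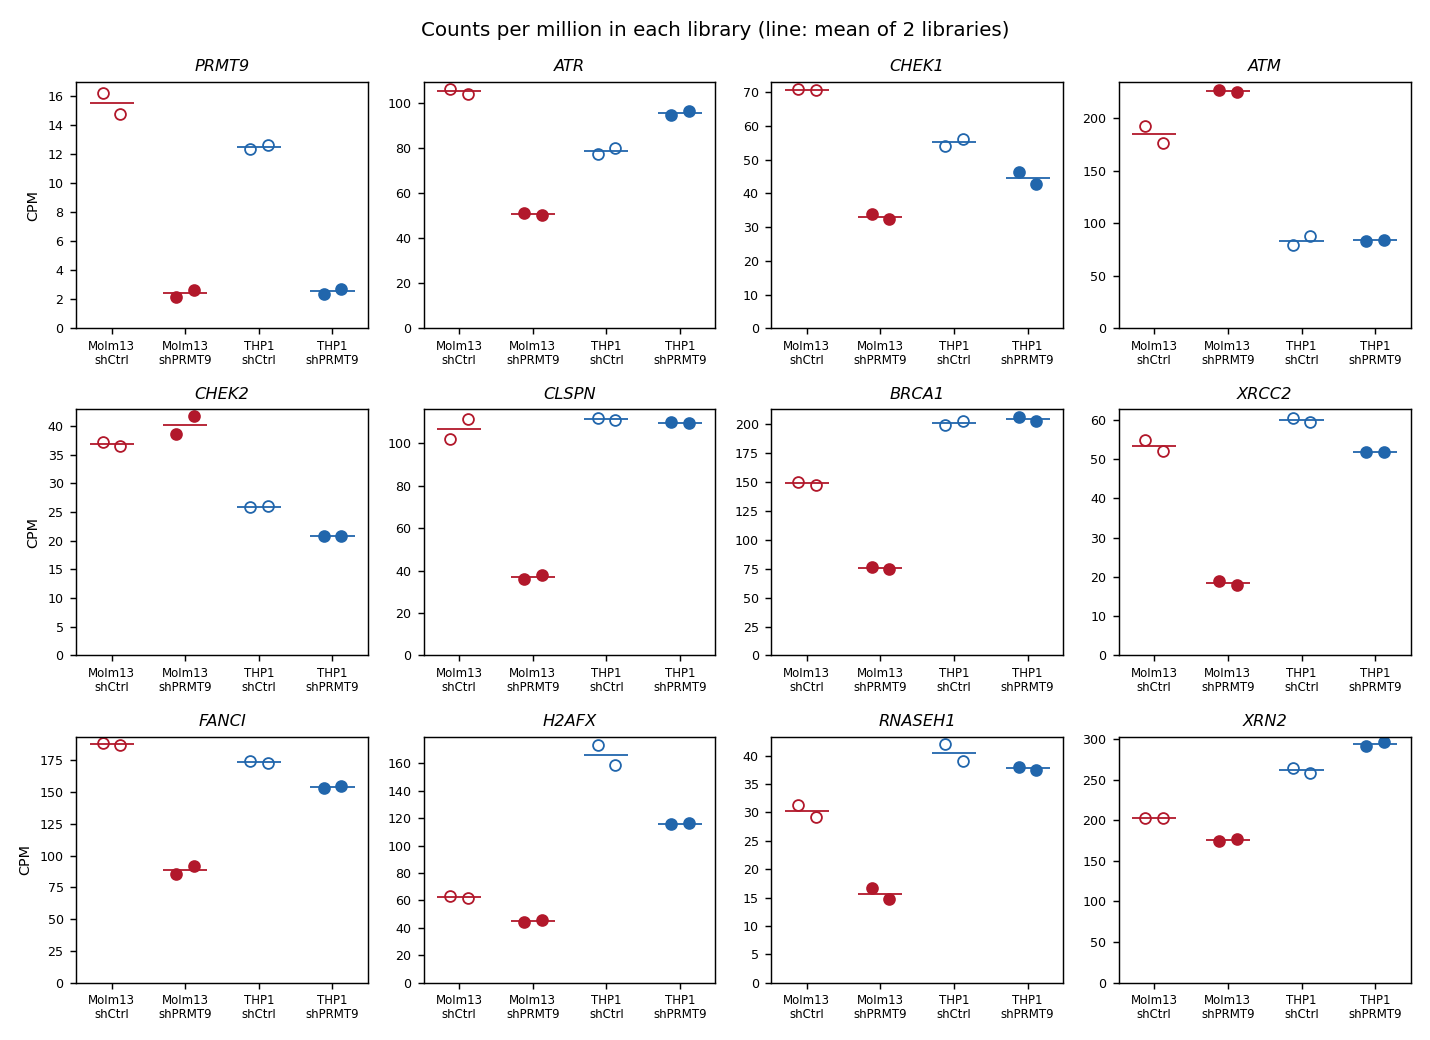
CPM (vertical axis, from 0) of PRMT9 and 11 members in each library, with open circles for shCtrl, filled circles for shPRMT9 and a line at the mean of the 2 libraries. ATR falls from 106 and 104 to 51.2 and 50.3 in Molm13 and rises from 77.4 and 80.0 to 94.7 and 96.4 in THP1, whereas H2AFX falls in both lines.

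Of the ATR partners, clamp and fork protection genes, 5 of 8 tested in Molm13 were lower DEGs, against 11.3% of all genes, and RAD17 rose by FDR. The medians were -0.73 in Molm13 and -0.02 in THP1, the latter 0.019 without shPRMT9 replicate 2. CLSPN, the adaptor through which ATR reaches CHEK1, had the smallest FDR of all members for a difference between the lines. Its CPM was 102 and 111 in Molm13 shCtrl and 35.9 and 37.9 in shPRMT9, and 112 and 111 in THP1 shCtrl and 110 in both shPRMT9 libraries. The log2 fold change was -1.53 ± 0.05 in Molm13 (FDR = 9.76e-29) and -0.02 ± 0.04 in THP1 (FDR = 0.708), a difference of 1.52 ± 0.06 (FDR = 7.78e-38). TIMELESS, which with TIPIN keeps helicase and polymerase coupled at the fork, had 190 and 192 CPM in Molm13 shCtrl and 94.5 and 89.0 in shPRMT9. In THP1 it had 114 and 112 CPM in shCtrl and 116 and 121 in shPRMT9. The log2 fold changes were -1.06 ± 0.03 (FDR = 2.75e-28) and 0.06 ± 0.04 (FDR = 0.226), with a difference of 1.13 ± 0.05 (FDR = 2.57e-34). TIPIN, with 21.0% of its exon bases in the pseudogene RPL9P25, followed with -0.87 in Molm13 (FDR = 3.39e-14) and 0.12 in THP1 (FDR = 0.159).

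The clamp subunits RAD1, RAD9A and HUS1, which form the ring loaded at stalled forks, did not move together. RAD1 fell in both lines, from 83.3 and 82.0 to 41.5 and 41 CPM in Molm13 (log2 fold change -1.003, FDR = 1.25e-22) and from 76.4 and 77.6 to 59.7 and 62.3 in THP1 (-0.34, FDR = 1.27e-06). RAD9A was at -0.20 in Molm13 (FDR = 0.0746), where it passed without shCtrl replicate 2 (FDR = 0.0317) or without shPRMT9 replicate 2 (FDR = 0.0255). It rose in THP1 (0.25, FDR = 0.00469), a call lost without shCtrl replicate 1 (FDR = 0.0563), without shPRMT9 replicate 2 (FDR = 0.0639) or under DESeq2 (FDR = 0.0519). HUS1 was at -0.04 (FDR = 0.679) and -0.03 (FDR = 0.779). RAD17, the clamp loader, rose in Molm13 (0.18, FDR = 0.00344) and fell in THP1 (-0.26, FDR = 0.000179), and their difference was -0.42 (FDR = 1.46e-06). Its Molm13 call was lost without shCtrl replicate 1 (FDR = 0.101) and under DESeq2 (FDR = 0.0746). TOPBP1, the activator of ATR, was at -0.60 in Molm13 (FDR = 1.55e-21) and -0.01 in THP1 (FDR = 0.812). It passed the fold limit narrowly and missed it without shCtrl replicate 2 (-0.58) or without shPRMT9 replicate 1 (-0.57). ATRIP, the partner of ATR, had at most 13 counts per library under either identifier. The identifiers overlap on the same strand (chr3:48446710-48465716 and chr3:48446710-48467645), so reads of ATRIP may be split or dropped and its level is not read. The former also shares 27.9% of its exon bases with TREX1 on the same strand. Of the ATRIP identifiers, 1 was tested, in THP1 only, with -0.12 (FDR = 0.886).

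The break sensing and chromatin mediator genes moved least in Molm13, with a median of -0.19 (0.05 in THP1, from 0.014 to 0.093 with each library left out). They held 1 DEG of 6 in Molm13, against 22.8% of all genes tested. H2AFX (chr11:119093854-119095467), which encodes the histone variant phosphorylated around breaks, fell to about the same degree in both lines. Its CPM was 62.9 and 61.7 in Molm13 shCtrl and 44.5 and 45.8 in shPRMT9, and 173 and 159 in THP1 shCtrl and 115 and 117 in shPRMT9. The log2 fold changes were -0.46 ± 0.05 (FDR = 4.37e-11) and -0.51 ± 0.04 (FDR = 3.91e-11), and their difference was -0.04 ± 0.06 (FDR = 0.696), so neither passed the fold limit and no difference between the lines was detected. That of THP1 was the lowest value among the members in that line. MDC1, the mediator that binds the phosphorylated histone, was the DEG, with 223 and 227 CPM in Molm13 shCtrl and 142 and 138 in shPRMT9 (-0.68 ± 0.03, FDR = 2.79e-23), and its THP1 libraries overlapped (-0.04, FDR = 0.477).

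TP53BP1, which favors end joining over resection, rose in Molm13 (0.13, FDR = 0.0159) and in THP1 (0.22, FDR = 0.000684), although the Molm13 call was lost without shCtrl replicate 2 (FDR = 0.0994) and without shPRMT9 replicate 1 (FDR = 0.0741), under DESeq2 (FDR = 0.154) and with no filter on low counts (FDR = 0.0784). The MRE11A, RAD50 and NBN complex tethers and processes broken ends. MRE11A fell in Molm13 (-0.21, FDR = 8.64e-06) and was at 0.02 in THP1 (FDR = 0.789), and NBN was at -0.17 (FDR = 3.5e-06) and 0.19 (FDR = 0.000155). RAD50 rose in Molm13, with 2150 and 2204 counts in shCtrl and 2542 and 3053 in shPRMT9 (0.36, FDR = 1.78e-11), and had only 112, 129, 120 and 120 counts in the THP1 libraries (0.09, FDR = 0.681). AC116366.3, a gene model that shares 79.7% of the RAD50 exon bases on the same strand, is listed in the THP1 table, with 3 to 8 counts, and not in the Molm13 table. For RAD50, therefore, only the fold change within each line is read, and their difference did not pass (-0.26 ± 0.14, FDR = 0.135).

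**Figure D3:**
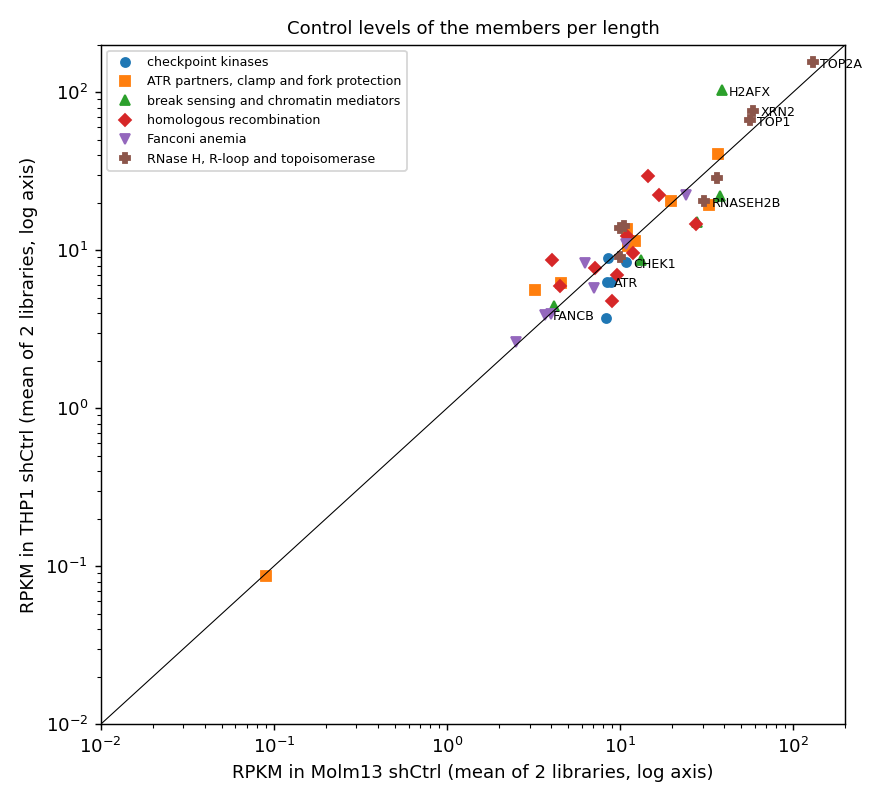
Mean RPKM of the members tested in THP1 other than RAD50, in the shCtrl libraries of Molm13 (horizontal, log axis) and THP1 (vertical, log axis), with a symbol for each role and a line of equal values. TOP2A is highest in both lines (130 and 155), and H2AFX lies above the line (38.6 in Molm13 and 103 in THP1).

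All 10 homologous recombination genes fell by FDR in Molm13, 8 of them as DEGs, with a median of -0.92, and all 10 differed between the lines with a higher value in THP1. Of all genes tested, 33.5% fell by FDR in Molm13, 11.3% were lower DEGs there and 22.8% had a higher value in THP1. In THP1 4 fell, 2 rose and 4 did not pass, where 18.6% of all genes fell and 19.0% rose. The THP1 median of the 10 genes was 0.04, a value near 0 that was -0.0063 without shPRMT9 replicate 1, 0.0080 without shPRMT9 replicate 2 and 0.0092 with library size only. XRCC2, a paralog of the strand exchange protein, had the largest fall of all members in Molm13. Its CPM was 54.8 and 52.0 in Molm13 shCtrl and 18.8 and 17.9 in shPRMT9, and 60.5 and 59.5 in THP1 shCtrl and 51.8 and 51.9 in shPRMT9. The log2 fold changes were -1.54 ± 0.06 (FDR = 7.58e-25) and -0.21 ± 0.05 (FDR = 0.00122). RAD54L, a motor protein of strand exchange with 25.1% of its exon bases shared, went from 46.4 and 46.6 to 17.5 and 16.5 CPM in Molm13 (-1.45, FDR = 2.83e-23) and from 95.7 and 94.3 to 73.3 and 74.0 in THP1 (-0.37, FDR = 7.64e-08).

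BRCA1, the scaffold that promotes resection, and BRCA2, the loader of the strand exchange protein, were among the 6 members with the smallest FDR for a difference. BRCA1 had 150 and 148 CPM in Molm13 shCtrl and 76.4 and 74.6 in shPRMT9, and 199 and 202 in THP1 shCtrl and 206 and 202 in shPRMT9. The log2 fold changes were -0.98 ± 0.04 (FDR = 5.21e-26) and 0.03 ± 0.03 (FDR = 0.612). BRCA2 had 108 and 112 CPM in Molm13 shCtrl and 61.3 and 60.8 in shPRMT9, and 55.8 and 60.5 in THP1 shCtrl and 70.2 and 67.1 in shPRMT9. It fell in Molm13 (-0.85 ± 0.04, FDR = 5.96e-22) and rose in THP1 (0.24 ± 0.05, FDR = 0.000399). The differences were 1.02 ± 0.05 for BRCA1 (FDR = 1.84e-32) and 1.10 ± 0.07 for BRCA2 (FDR = 3.01e-27).

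BLM, a helicase that dissolves joint molecules, fell in Molm13 from 179 and 182 to 84.5 and 92.3 CPM (-1.03, FDR = 5.34e-27) and less in THP1 (-0.26, FDR = 1.53e-05). XRCC3, whose exons overlap KLC1 on the opposite strand over 76.7% of their bases, had 33.9 CPM in both Molm13 shCtrl libraries and 15.2 and 14.9 in shPRMT9 (-1.17, FDR = 1.27e-18), and its THP1 libraries overlapped (0.05, FDR = 0.566). The remaining DEGs were BARD1, the partner of BRCA1 (-0.87), and WRN, a helicase related to BLM (-0.60). The WRN value missed the fold limit without shCtrl replicate 2 (-0.58) or without shPRMT9 replicate 1 (-0.55). PALB2, which joins BRCA1 to BRCA2, was at -0.38 and RAD51C at -0.43 in Molm13, below the fold limit. In THP1, RAD51C rose by 0.14 (FDR = 0.032), a call lost when any 1 of the 4 libraries was left out (FDR from 0.0544 to 0.275), under DESeq2 (FDR = 0.152), with library size only (FDR = 0.0887) and with no filter on low counts (FDR = 0.108).

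All 7 Fanconi anemia genes fell by FDR in Molm13, 6 as DEGs, with a median of -0.80, where 33.5% of all genes fell and 11.3% were lower DEGs. In THP1 the median was -0.05, 2 fell (FANCI and BRIP1), 0 rose and 5 did not pass, where 18.6% of all genes fell and 19.0% rose. FANCI, which with FANCD2 forms the clamp that is ubiquitinated at crosslinks, had 188 and 187 CPM in Molm13 shCtrl and 85.2 and 91.9 in shPRMT9, and 174 and 173 in THP1 shCtrl and 153 and 154 in shPRMT9. The log2 fold changes were -1.08 ± 0.04 (FDR = 2.9e-28) and -0.17 ± 0.03 (FDR = 0.000242), with a difference of 0.92 ± 0.05 (FDR = 2.91e-29). FANCD2 had 88.7 and 93.8 CPM in Molm13 shCtrl and 55.7 and 56.8 in shPRMT9 (-0.70, FDR = 5.35e-18), and overlapping libraries in THP1 (-0.05, FDR = 0.437). BRIP1, a helicase that binds BRCA1, was at -0.71 in Molm13 (FDR = 1.23e-15) and -0.19 in THP1 (FDR = 0.0141), where the call was lost without shCtrl replicate 2 (FDR = 0.208), without shPRMT9 replicate 2 (FDR = 0.219) and under DESeq2 (FDR = 0.0883).

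Subunits of the core ligase complex and its DNA anchor spanned a wider range. FANCB had 12.3 and 11.6 CPM in Molm13 shCtrl and 4.44 and 4.79 in shPRMT9 (-1.37 ± 0.12, FDR = 2.18e-13). It was at -0.18 in THP1 (FDR = 0.187), and at -0.34 without shCtrl replicate 1 (FDR = 0.013). FANCM, the DNA translocase that anchors the complex, was at -0.84 in Molm13 (FDR = 3.26e-13), and FANCC at -0.80 (FDR = 5.95e-12). FANCA was at -0.34 (FDR = 2.89e-07), short of the fold limit. In THP1 these 3 genes lay between -0.0013 and 0.05 with overlapping libraries.

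All 8 RNase H, R-loop and topoisomerase genes fell by FDR in Molm13, 3 as DEGs, with a median of -0.46, where 33.5% of all genes fell and 11.3% were lower DEGs. In THP1 the median was -0.10, and 3 fell, 2 rose and 3 did not pass, where 18.6% of all genes fell and 19.0% rose. RNASEH1 (chr2:3544793-3558616), the single-subunit enzyme that degrades RNA in hybrids, had 31.3 and 29.1 CPM in Molm13 shCtrl and 16.7 and 14.7 in shPRMT9, and 42.0 and 39.0 in THP1 shCtrl and 38 and 37.5 in shPRMT9. The log2 fold change was -0.95 ± 0.08 in Molm13 (FDR = 7.36e-15), the largest fall of the group, and -0.10 ± 0.06 in THP1 (FDR = 0.197), and the difference was 0.86 ± 0.10 (FDR = 2.14e-12).

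The 3 subunits of RNase H2, which also removes single ribonucleotides from DNA, fell to different degrees. RNASEH2A, the catalytic subunit, went from 74.2 and 74.8 to 45.3 and 43.6 CPM in Molm13 (-0.75, FDR = 5.79e-18) and from 59.8 and 57.3 to 47.8 and 51.2 in THP1 (-0.24, FDR = 0.000518). It shares 30.8% of its exon bases with THSD8 on the same strand. RNASEH2B was at -0.38 in Molm13 (FDR = 7.91e-16) and -0.33 in THP1 (FDR = 1.79e-08), and no difference between the lines was detected (0.06 ± 0.05, FDR = 0.283). RNASEH2C was at -0.23 in Molm13 (FDR = 0.000835) and -0.11 in THP1 (FDR = 0.119).

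XRN2 (chr20:21303304-21389827), the exonuclease that trims the transcript behind a terminating polymerase, had 202 CPM in both Molm13 shCtrl libraries and 174 and 177 in shPRMT9, and 264 and 259 in THP1 shCtrl and 292 and 297 in shPRMT9. It fell in Molm13 (-0.20 ± 0.03, FDR = 1.04e-07) and rose in THP1 (0.17 ± 0.03, FDR = 9.63e-05), and the difference was 0.39 ± 0.04 (FDR = 1.36e-12). AQR, a helicase of the spliceosome that resolves hybrids, showed the same signs, with -0.31 (FDR = 3.16e-10) and 0.13 (FDR = 0.0101), the latter lost without shCtrl replicate 1 (FDR = 0.0887), without shPRMT9 replicate 2 (FDR = 0.102) or under DESeq2 (FDR = 0.0518). TOP1, which relaxes supercoils ahead of and behind the polymerase, fell in Molm13 (-0.54, FDR = 1.11e-19) and was at 0.03 in THP1 (FDR = 0.455). TOP2A, the proliferation-linked topoisomerase, had 820 and 855 CPM in Molm13 shCtrl and 510 and 508 in shPRMT9, and 979 and 1015 in THP1 shCtrl and 813 and 798 in shPRMT9. Its log2 fold changes were -0.72 ± 0.02 (FDR = 4.94e-28) and -0.31 ± 0.03 (FDR = 1.08e-09).

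Levels of members can be compared with each other per length only. In RPKM, TOP2A was highest in Molm13 shCtrl (130 ± 3.9, SD, n = 2), followed by XRN2 (58.8 ± 0.027), TOP1 (56.4 ± 0.31) and H2AFX (38.6 ± 0.55). In THP1 shCtrl the order was TOP2A (155 ± 4.0), H2AFX (103 ± 6.2), XRN2 (76.1 ± 1.2) and TOP1 (66.6 ± 0.076). Apart from ATRIP and RAD50, the lowest levels were those of FANCC (2.52 in Molm13 and 2.62 in THP1). The summed RPKM of the 46 identifiers was 822 and 831 in Molm13 shCtrl and 549 and 554 in shPRMT9, and 881 and 879 in THP1 shCtrl and 804 and 810 in shPRMT9.

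Genes of the same pathways outside the members were read in the same fits. Of all genes tested, 11.3% were lower DEGs in Molm13 and 2.39% in THP1. Of 18 other checkpoint genes, 7 were lower DEGs in Molm13 and 0 in THP1, with medians of -0.39 and -0.04. PKMYT1, which inhibits CDK1 as WEE1 does, had the largest change in Molm13 (-1.64, FDR = 3.16e-20), and ETAA1, a second activator of ATR, in THP1 (-0.42, FDR = 0.000489). Of 18 other homologous recombination genes tested, 9 were lower DEGs in Molm13 and 1 in THP1, and the medians were -0.69 and -0.08. RAD51AP1, a cofactor of strand exchange, was the DEG of both lines (-1.60, FDR = 1.38e-25, and -0.59, FDR = 1.73e-07). Of 11 other Fanconi anemia genes, 5 were lower DEGs in Molm13 and 0 in THP1, with medians of -0.50 and -0.07. ERCC4, a nuclease that unhooks crosslinks, was at -0.94 in Molm13 (FDR = 2.53e-10) and 0.30 in THP1 (FDR = 0.00185), and FANCG, a core complex subunit, had the largest change in THP1 (-0.42, FDR = 1.53e-06).

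Of 22 other R-loop and hybrid genes tested, 6 were lower DEGs in Molm13, with a median of -0.16, and 2 were higher DEGs in THP1, with a median of 0.06. Of all genes tested, 11.3% were lower DEGs in Molm13 and 3.83% were higher DEGs in THP1. ALYREF, an mRNA export adaptor, was at -1.14 in Molm13 (FDR = 1.35e-27). ADAR, the double-stranded RNA editing enzyme, had the largest change in THP1, from 466 and 463 to 797 and 795 CPM (0.78, FDR = 1.43e-18). SAMHD1, a dNTP hydrolase with a role at stalled forks, was the other higher DEG in THP1 (0.59, FDR = 1.13e-15). It also rose in Molm13, short of the fold limit (0.44, FDR = 3.02e-19). The other lower DEGs in Molm13 were DDX21 (-0.93), DHX9 (-0.74), DDX5 (-0.72), SRSF1 (-0.64) and SFPQ (-0.64). NONO, DDX3X and KHDRBS1, 3 further RNA-binding proteins, were not DEGs in either line. NONO was at 0.12 in Molm13 (FDR = 5.35e-05) and 0.01 in THP1 (FDR = 0.883). DDX3X was at -0.46 (FDR = 6.28e-20) and 0.16 (FDR = 0.000139). KHDRBS1 was at 0.06 (FDR = 0.0663) and 0.21 (FDR = 6.25e-06).

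S phase and proliferation genes fell in Molm13, as most members did, and went both ways in THP1. Of 20 such genes, 16 were lower DEGs in Molm13 and 1 in THP1, with medians of -0.96 and -0.05. Of all genes tested, 11.3% were lower DEGs in Molm13 and 2.39% in THP1. By FDR alone, 8 of the 20 fell in THP1, 3 rose (MCM5 at 0.40, MCM6 at 0.15 and MCM4 at 0.13) and 9 did not pass. Of all genes, 18.6% fell and 19.0% rose in that line. GINS2, a subunit of the replicative helicase, was at -1.78 in Molm13 (FDR = 3.48e-24), and CCNE2, a cyclin of S phase entry, was the DEG of both lines (-1.59, FDR = 2.49e-27, and -0.66, FDR = 2.91e-11). Their summed RPKM was 1114 and 1126 in Molm13 shCtrl and 599 and 598 in shPRMT9, and 1106 and 1083 in THP1 shCtrl and 1071 and 1066 in shPRMT9. Their part in the members' values was not tested. In bulk RNA, fewer cells in S phase and less RNA per cell cannot be told apart.

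**Figure D4:**
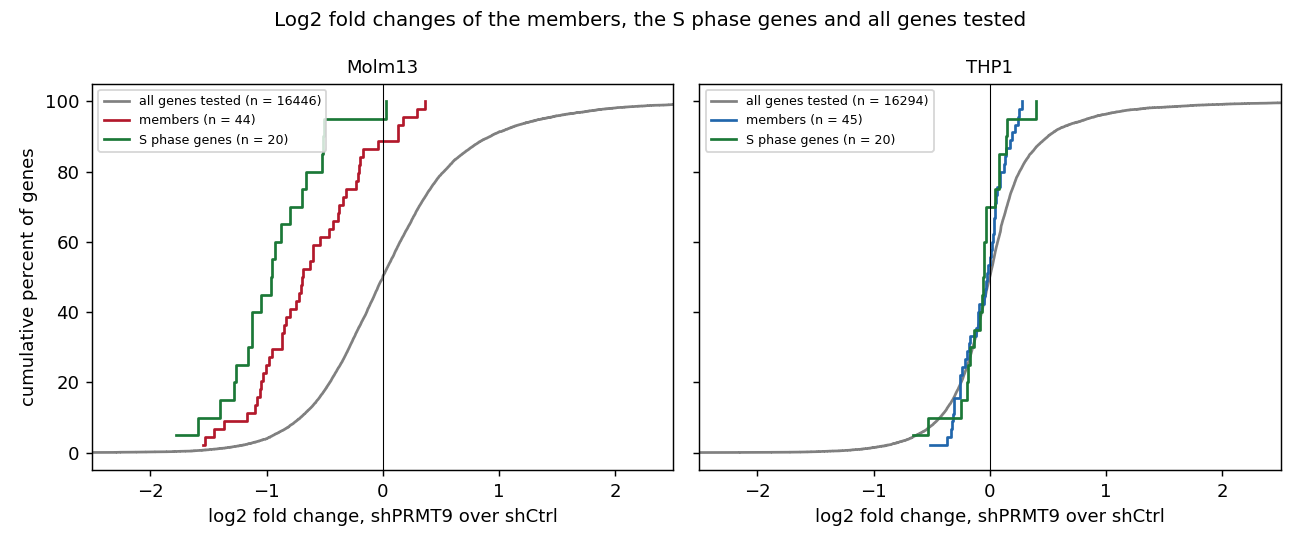
Cumulative percent of genes (vertical axis) by log2 fold change, shPRMT9 over shCtrl (horizontal axis), for all genes tested (grey), the members (red or blue) and 20 S phase genes (green). In Molm13 the members (median -0.69) and the S phase genes (median -0.96) lie left of all genes, and in THP1 the 3 curves cross near 0, with medians of -0.02 and -0.05.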

How the data were processed

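PolyA RNA was sequenced from shCtrl and shPRMT9 cells of each line, 2 libraries per group. The authors deposited raw counts, whole reads per gene without normalization, in 1 table per line, and the submitters' processing notes name TopHat2 2.0.8, HTSeq 0.11.2, edgeR 3.30.3 and hg38. The annotation and the strand setting of the counting are not given in the sources used here, so reads of overlapping genes may be split or dropped. All per-sample columns were used.

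Counts were analysed in R 4.3.3 with edgeR 4.0.16 (TMM, filterByExpr, quasi-likelihood test), each line alone, and in all 8 libraries for the difference between the lines. P-values were adjusted over all genes tested. SE is the absolute log2 fold change over the square root of F. CPM and RPKM used TMM-scaled totals and the exon lengths of the Molm13 table. Totals of 18720950 to 27356870 counts and a biological coefficient of variation of 0.0201 in Molm13 and 0.0247 in THP1 set the precision. Replicate pairs differed by more than sampling noise, with a chi-square per gene of 1.32 to 2.06.

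The members, the pathway lists and the tests were chosen with earlier results of these data known. Named are PRMT9, ATR, ATM, CHEK1, CHEK2, H2AFX, RNASEH1, XRN2, up to 6 DEGs per role and the 6 members with the smallest FDR for the difference, and every other member by value or range. From each outside list, DEGs of both lines and the gene with the largest change per line are named, with NONO, DDX3X and KHDRBS1. Named beside them were SAMHD1, MCM4, MCM5, MCM6 and the other lower DEGs of the R-loop list. The myeloid and other cell type genes and the remaining members' values were also named. Exon sharing was read from GENCODE release 29, in which 96.3% of 57388 matched identifiers have the same start and end. The tests were tried on simulated counts. The alternatives were other scalings, no filter, DESeq2 1.42.0, a replicate block, 1 fit of all libraries, other DEG limits, each library left out and a shorter promoter window. After the data were seen, leaving out members that share over 20% of their exon bases was added.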

Additional observations from a re-analysis of the deposited data

Results flagged for a closer look

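For 38 members, shPRMT9 acted differently in Molm13 and THP1 by the interaction term of edgeR's quasi-likelihood test over 19288 genes (FDR below 0.05), against 42.2% of all genes. The values are the log2 fold change in THP1 minus that in Molm13. Among the checkpoint kinases the difference was 1.34 for ATR, 0.80 for CHEK1 and 0.55 for WEE1. For the ATR partners, clamp and fork protection genes it was 1.52 for CLSPN, 1.13 for TIMELESS, 0.60 for TOPBP1, 0.68 for RAD1, 1.00 for TIPIN and 0.46 for RAD9A. Break sensing and chromatin mediator genes differed by 0.65 for MDC1, 0.37 for NBN and 0.24 for MRE11A. Each homologous recombination gene passed, with 1.02 for BRCA1, 1.10 for BRCA2, 1.35 for XRCC2, 1.10 for RAD54L, 0.78 for BLM, 1.23 for XRCC3, 0.94 for BARD1, 0.58 for RAD51C, 0.49 for PALB2 and 0.36 for WRN. Each Fanconi anemia gene passed as well, with 0.92 for FANCI, 0.66 for FANCD2, 0.88 for FANCM, 0.86 for FANCC, 1.20 for FANCB, 0.53 for BRIP1 and 0.36 for FANCA. The RNase H, R-loop and topoisomerase genes that passed were at 0.58 for TOP1, 0.42 for TOP2A, 0.39 for XRN2, 0.86 for RNASEH1, 0.45 for AQR and 0.52 for RNASEH2A. The value was negative, lower in THP1, for the other three, with -0.42 for RAD17, -0.27 for ATM and -0.43 for CHEK2. The difference was lost for RAD9A without Molm13 shPRMT9 replicate 1 (0.32, FDR = 0.0606) and for MRE11A without THP1 shCtrl replicate 1 (0.17, FDR = 0.0526).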

How the results depend on the processing

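The 26 lower DEGs in Molm13 stayed at 26 under DESeq2 and under the replicate block, and the 0 DEGs in THP1 stayed at 0 with 23 of the 45 members at an unadjusted p below 0.05 by edgeR. A fold change limit of 2 left 11 lower DEGs in Molm13. With no fold change limit, 4 members were higher in Molm13, and 8 were higher and 14 lower in THP1. DESeq2 called 2 members higher by FDR in Molm13 and 5 in THP1, where edgeR called 4 and 8. Without members that share exon bases, a choice made after seeing the data, 2 of 36 were higher in Molm13 by FDR, 22 were lower DEGs, and 30 differed upward between the lines.

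Same-numbered libraries correlated at -0.083 in Molm13 and -0.017 in THP1 in their deviations from the group means, so the numbers were not used as pairs. With the replicate block the counts were 26 DEGs and 37 lower and 4 higher by FDR in Molm13, 0 DEGs and 14 lower and 8 higher in THP1, and 35 and 3 for the difference.

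Medians moved by more than the spread between libraries as follows. Without a filter on low counts, the Molm13 medians were -0.72 for all members, -0.64 for the checkpoint kinases, -0.89 for the ATR partners and -0.18 for the other R-loop genes, and that of the RNase H group in THP1 was -0.12. In 1 fit of all 8 libraries, the Molm13 medians were -0.70, -0.87 for the ATR partners and -0.17 for the other R-loop genes. Scaling by library size only gave THP1 medians of -0.049 for all members and for the ATR partners, -0.12 for the checkpoint kinases, 0.027 for break sensing, 0.0092 for homologous recombination, -0.13 for the RNase H group and -0.11 for the other recombination genes. The median difference between the lines was 0.56 with relative log expression size factors and with DESeq2 and 0.54 with library size only. In the shorter promoter window, the cell cycle homology letters stood in 3.77% of member promoters and 7.37% of all, E2F letters in 11.3% and 1.68%, and CCAAT in 49.1% and 21.3%.

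With each library left out in turn, lower DEGs in Molm13 ranged from 23 to 26, and members higher in THP1 by FDR from 5 to 7. Molm13 medians ranged from -0.72 to -0.67 for all members, -0.66 to -0.58 for the checkpoint kinases, -0.86 to -0.75 for the ATR partners, -0.21 to -0.16 for break sensing, -0.94 to -0.89 for recombination, -0.83 to -0.71 for Fanconi anemia, -0.55 to -0.45 for the other Fanconi genes and -0.20 to -0.12 for the other R-loop genes. The ATR partner range does not include the -0.73 of the main fit, which tested 8 of the 10 identifiers and neither of ATRIP. THP1 medians ranged from -0.025 to 0.019 for the ATR partners, 0.014 to 0.093 for break sensing, -0.0063 to 0.032 for recombination and -0.12 to -0.089 for the RNase H group. The median difference ranged from 0.54 to 0.57, below the 0.58 of the main fit.

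A single member's value changed sign under an alternative in 27 cases. Each member was counted again under each alternative, so the same gene recurs, here and in the changed calls below. None of the values that changed sign passed an FDR of 0.05 in the main fit. With library size only, the THP1 values were -0.021 for ATM, -0.0077 for MRE11A and -0.0017 for BRCA1. Without a filter ATM was at -0.0068, and in 1 fit of all libraries FANCA was at 0.0044. With a library left out, ATM ranged from -0.067 to 0.080, HUS1 from -0.067 to 0.0032, MRE11A from -0.018 to 0.053, FANCA from -0.071 to 0.066, FANCM from -0.081 to 0.16, FANCB from -0.34 to 0.0042, FANCC from -0.0093 to 0.097, MDC1 from -0.12 to 0.026, BARD1 from -0.026 to 0.13, ATRIP from -0.76 to 0.32 and XRCC3 from -0.013 to 0.11 in THP1. The HUS1 difference was -0.0032 with relative log expression, -0.023 with library size only, -0.0033 with DESeq2 and from -0.042 to 0.019 with a library left out. In the other 31 changed calls the direction held, 24 losing and 7 gaining an FDR below 0.05, and the causes were not tested.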
